A study of Homo sapiens with 8 samples.

Results

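The laminin genes examined were 8 in number, LAMA1, LAMA3, LAMA4, LAMA5, LAMB1, LAMB2, LAMB3 and LAMC1, and the data are ATAC-seq peaks, which mark DNA that a transposase can reach because it is not wrapped in nucleosomes. Peaks of 4 lists were merged wherever they shared at least 1 bp, and a merged region was kept when it overlapped the body of a laminin gene (GENCODE 44, GRCh38) or the 50 kb on either side. This gave 198 of the 126658 merged regions, with 12 for LAMA1, 52 for LAMA3, 17 for LAMA4, 28 for LAMA5, 19 for LAMB1, 12 for LAMB2, 26 for LAMB3 and 32 for LAMC1. LAMA3 and LAMB3, whose chains belong to laminin-332, together held 78 regions and the other 6 genes held 120.

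Laminins are cross-shaped proteins of the basement membrane, each built from an α, a β and a γ chain, and cells bind them through integrins and dystroglycan. Laminin-332 holds the α3 and β3 chains encoded by LAMA3 and LAMB3, and it anchors the basal cells of stratified and glandular epithelia through hemidesmosomes. The gene of its γ chain is not analysed here. Of the other members, LAMA1 encodes a chain of early embryonic basement membranes, LAMA4 a chain of vessel and mesenchymal laminins, LAMA5 the widespread chain of adult epithelia, and LAMB1, LAMB2 and LAMC1 the β and γ chains that most laminins share.

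The cells were MCF10A, a human cell line from non-malignant breast epithelium that divides without limit, given solvent or 5 ng/ml of TGFβ1, a cytokine that drives them through an epithelial-mesenchymal transition, for 6, 24 or 72 h. The labels place the solvent samples at 0 h, whereas the study also describes the control as treated with solvent alongside the others. There were 2 replicate libraries per condition, 8 in all, which the study describes as independent biological replicates, with the 4 conditions seeded in wells of 1 plate. The authors called peaks on both replicates of a condition together, so each condition is 1 list with no replicate error, no difference below could be tested, and no p-value is given. The lists hold no read totals, and the depth behind a value is unknown. The solvent list held 86209 peaks, and those of 6, 24 and 72 h held 107656, 118433 and 116720. Among the markers fixed for the cell type, all 6 genes of basal-like mammary epithelium (KRT5, KRT14, TP63, CDH1, EPCAM and KRT17) had a peak within 3 kb of a transcription start site (TSS) in every list, but so did both endothelial genes (PECAM1 and CDH5) and 1 of 2 leukocyte genes (PTPRC, with CD3E at 0), so promoter peaks alone did not set the cell type apart.

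Each peak comes with an AUC, which sums its significance (−log10 p) above the threshold of the peak caller over its bases and grows with depth and with the width of the peak. For each list the AUCs within a region were summed and divided by 1.358 (6 h), 1.301 (24 h) or 1.187 (72 h), the median ratio to solvent over the regions within 3 kb of a TSS, and the result is called scaled AUC below. On this scale the median of all regions shared with solvent was still 0.064, 0.122 and 0.145 above 0 in log2, so small positive values are the norm. Where a list had no peak, the AUC was set to 200, the smallest the authors kept, and the ratio is then a bound. A region was called higher or lower when its scaled AUC differed from solvent by at least 1.5-fold, which is 0.58 in log2.

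The sequences that carry the results are given first, on GRCh38. Each is the plus strand of the summit base and the 100 bases on either side of it in the strongest peak of a region, except the last 2, which are the 250 bases before a RefSeq start site (GRCh38.p14), written along the gene. Capitals mark AP-1 sites (TGACTCA or TGAGTCA), E-boxes (CACCTG or CAGGTG), SMAD palindromes (GTCTNGAC or GTCNAGAC) and TEAD sites (ACATTCC or GGAATGT), searched on both strands.
The LAMB3 region of largest AUC, summit in an intron of the neighbouring gene CAMK1G, chr1:209607453-209607653: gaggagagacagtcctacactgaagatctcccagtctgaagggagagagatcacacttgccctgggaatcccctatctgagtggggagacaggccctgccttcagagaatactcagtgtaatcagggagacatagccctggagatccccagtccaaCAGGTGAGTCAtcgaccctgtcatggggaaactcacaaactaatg
A LAMB3 intron region with no solvent peak, chr1:209648503-209648703: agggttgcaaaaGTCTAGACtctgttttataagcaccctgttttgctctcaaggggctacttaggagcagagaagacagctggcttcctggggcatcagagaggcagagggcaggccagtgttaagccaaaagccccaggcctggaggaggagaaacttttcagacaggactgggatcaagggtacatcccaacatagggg
The LAMA3 intron region of largest rise, chr18:23835187-23835387: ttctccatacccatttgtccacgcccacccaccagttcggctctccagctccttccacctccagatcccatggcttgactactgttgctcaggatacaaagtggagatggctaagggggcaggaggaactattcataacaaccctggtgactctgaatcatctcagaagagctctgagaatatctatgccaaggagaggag
The LAMA4 intron region with the largest rise of all 198, chr6:112205449-112205649: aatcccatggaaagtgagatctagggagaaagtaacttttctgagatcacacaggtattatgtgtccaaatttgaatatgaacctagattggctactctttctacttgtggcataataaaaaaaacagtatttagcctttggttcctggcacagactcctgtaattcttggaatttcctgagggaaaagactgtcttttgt
The LAMB1 intron region of largest rise, chr7:107971673-107971873: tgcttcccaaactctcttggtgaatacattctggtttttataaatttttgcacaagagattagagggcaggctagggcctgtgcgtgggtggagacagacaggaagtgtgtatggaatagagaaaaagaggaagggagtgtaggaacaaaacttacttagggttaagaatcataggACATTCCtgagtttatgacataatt
The LAMC1 upstream region with the largest fall of those with an AUC of at least 400 in some list, chr1:183007710-183007910: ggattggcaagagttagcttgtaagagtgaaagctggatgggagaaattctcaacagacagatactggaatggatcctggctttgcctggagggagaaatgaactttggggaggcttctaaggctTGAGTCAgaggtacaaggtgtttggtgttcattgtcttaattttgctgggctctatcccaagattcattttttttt
The stronger of 2 LAMA5 regions that were lower at 24 h, summit in an intron, chr20:62350076-62350276: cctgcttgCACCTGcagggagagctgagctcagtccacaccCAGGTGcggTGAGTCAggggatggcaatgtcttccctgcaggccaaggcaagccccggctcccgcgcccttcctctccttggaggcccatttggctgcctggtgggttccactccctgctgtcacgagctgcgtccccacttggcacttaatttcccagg
The start site of the short LAMA3 form, chr18:23872770-23873019, plus strand: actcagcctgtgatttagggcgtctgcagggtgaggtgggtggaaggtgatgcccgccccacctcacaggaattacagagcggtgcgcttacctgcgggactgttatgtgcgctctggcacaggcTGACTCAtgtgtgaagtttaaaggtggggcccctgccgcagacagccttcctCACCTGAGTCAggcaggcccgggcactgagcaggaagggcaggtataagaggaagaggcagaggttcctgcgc
The downstream start site of LAMB3, chr1:209651375-209651624, minus strand: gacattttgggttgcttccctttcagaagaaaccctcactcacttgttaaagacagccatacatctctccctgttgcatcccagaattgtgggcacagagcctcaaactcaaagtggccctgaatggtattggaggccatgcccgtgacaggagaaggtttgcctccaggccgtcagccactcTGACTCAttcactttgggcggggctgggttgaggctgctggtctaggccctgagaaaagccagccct

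To find out how accessibility around each laminin gene followed TGFβ1, the scaled AUC was summed over each window. LAMB3 (chr1:209614870-209652425, minus strand) held a summed scaled AUC of 74129 in solvent and then 112402, 134309 and 167415 after 6, 24 and 72 h. Its window was 1.52-fold, 1.81-fold and 2.26-fold above solvent, and with this scaling and these windows no other laminin window passed 1.5-fold. Among all windows of protein-coding genes, 4.24%, 10.2% and 11.3% were higher by that measure after 6, 24 and 72 h, so 1 of 8 is close to the background share at the later times. LAMB3 itself lay above 96.0%, 94.9% and 96.9% of those genes. Its call at 6 h was lost when the lists were scaled on all shared regions (a log2 ratio of 0.54), with only the regions nearest to a LAMB3 start (0.52), and per covered base.

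LAMA3 (chr18:23689453-23956222, plus strand) summed to 36582, 41626, 46780 and 52949 in solvent and at 6, 24 and 72 h, a log2 ratio of 0.19, 0.35 and 0.53. LAMA4 (chr6:112107931-112254939, minus strand) went from 10529 to 12938, 14014 and 15578, a log2 ratio of 0.30, 0.41 and 0.57. LAMA1 (chr18:6941742-7117797, minus strand), the window with the lowest values, went from 7464 to 9334, 10698 and 11017, a log2 ratio of 0.32, 0.52 and 0.56. The sums of these 3 α-chain windows were larger at each later time and stayed short of 1.5-fold here, but the side of that threshold depended on the processing. LAMA3 at 72 h passed it with windows of 10 kb (0.68) and with regions nearest to its own starts (0.66), and LAMA4 at 72 h with the strongest peak of each region (0.64). Without scaling between lists, LAMA1, LAMA3, LAMA4 and LAMC1 passed it at every time, with log2 ratios from 0.61 to 0.90.

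LAMC1 (chr1:183023420-183145592, plus strand) had sums of 40330, 46624, 47268 and 53119, a log2 ratio of 0.21, 0.23 and 0.40. LAMB1 (chr7:107923799-108003213, minus strand) had 14512, 15771, 15642 and 17047, a log2 ratio of 0.12, 0.11 and 0.23. LAMB2 (chr3:49121114-49133118, minus strand) had 16877, 16424, 16793 and 17147, a log2 ratio of -0.04, -0.01 and 0.02. LAMA5 (chr20:62307955-62367312, minus strand) had 38804, 39047, 38616 and 36232, a log2 ratio of 0.01, -0.01 and -0.10. The median over all protein-coding genes was 0.05, 0.10 and 0.11, so LAMB2 and LAMA5 sat below it at every time, and LAMA5 at 72 h exceeded only 10.8% of genes. No laminin window was lower by 1.5-fold at any time, against 0.016%, 0.0319% and 0.16% of all windows at 6, 24 and 72 h.

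**Figure D1:**
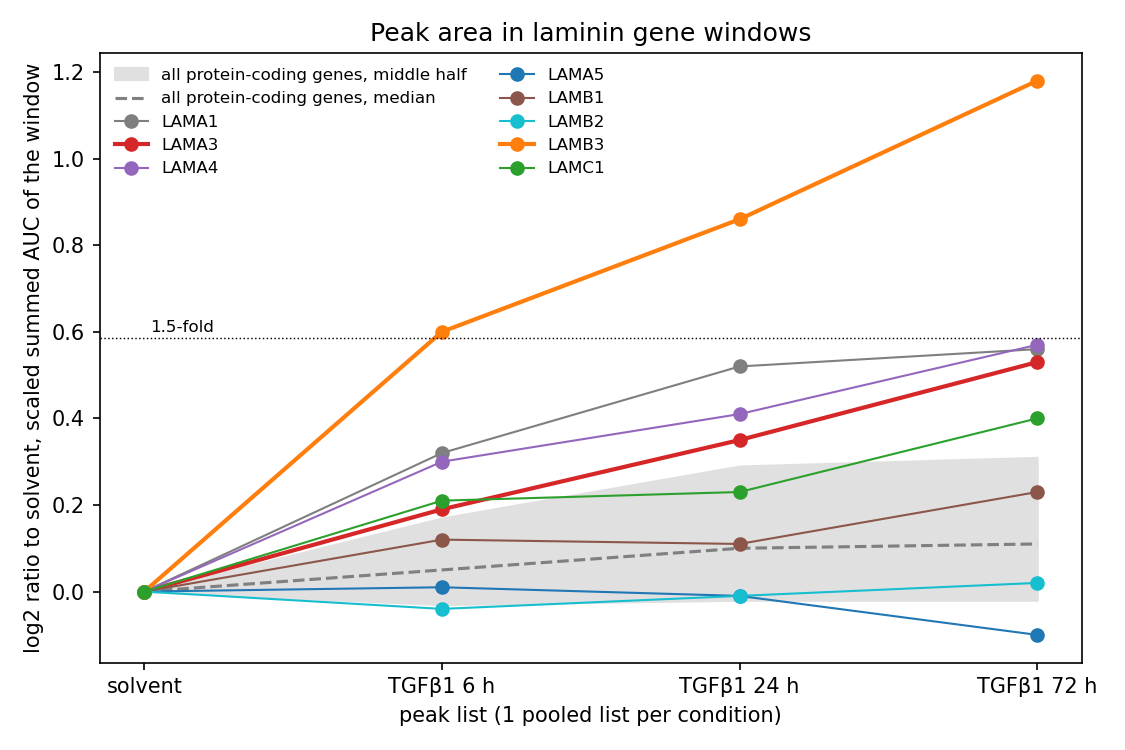
Log2 ratio to solvent of the summed scaled AUC of each laminin window (y) in the 4 pooled lists (x), 1 line per gene, with the median and interquartile range of all protein-coding genes in grey and the 1.5-fold line dotted. LAMB3 climbs to 1.18 at 72 h, LAMA1, LAMA3 and LAMA4 end between 0.53 and 0.57, and LAMA5 ends at -0.10.

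The sums rested on both the number of bases under peaks and the height of the peaks. Covered length was not scaled, and over the whole lists peaks covered 44.8 Mb in solvent and 58.4, 60.4 and 58.9 Mb at 6, 24 and 72 h. In the LAMB3 window, peaks covered 34.8 kb in solvent and 57.2, 60.5 and 61.7 kb at 6, 24 and 72 h, and the scaled AUC per covered base was 2.13, 1.97, 2.22 and 2.71. In the LAMA3 window, covered length went from 14.6 kb to 20.8, 26.1 and 26.5 kb, while the scaled AUC per covered base was 2.50, 2.00, 1.79 and 2.00. The LAMA3 window thus had more covered bases with less AUC on each, and in the LAMB3 window both measures were above solvent at 72 h. Taken per covered base and scaled on that measure, the log2 ratio of LAMB3 was 0.03, 0.18 and 0.42, short of 1.5-fold throughout, and that of LAMA3 was -0.18, -0.36 and -0.26.

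LAMB3, the gene of the β3 chain, stood out by how much of its body was accessible. Peaks covered 39.1% of the 37.6 kb gene body in the solvent list and 85.3%, 90.2% and 94.4% of it in the 6, 24 and 72 h lists. Among 14856 protein-coding genes of at least 10 kb, this share ranked 14 in solvent and 1 in each of the TGFβ1 lists, a comparison added after the values had been seen. From solvent to 72 h the share of LAMB3 grew by 55.3 percentage points. Over all these genes the median share was 2.22% in solvent and 2.76% at 72 h. LAMA5 had 13.3% and 14.3%, LAMB2 7.70% and 8.15%, LAMB1 6.15% and 8.83%, LAMC1 5.05% and 7.14%, LAMA3 4.07% and 8.38%, LAMA4 2.08% and 3.55%, and LAMA1 1.43% and 2.18%.

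The largest of the LAMB3 regions was 20189 bp long, chr1:209604633-209624821, and reached across the converging 3′ ends of CAMK1G and LAMB3. In solvent it was broken into 3 peaks, the widest of 7294 bp, at 6 h into 2 peaks, the widest of 10953 bp, and at 24 and 72 h it was a single peak of 20177 and 19900 bp. Its scaled AUC was 20917, 42359, 51130 and 63678, so it was 2.03-fold, 2.44-fold and 3.04-fold above solvent. Its widest peak was the widest of each of the 4 lists, and its strongest peak ranked 9 by AUC in solvent and 1 in each TGFβ1 list. The summit of that peak lay in CAMK1G, so the region cannot be given to LAMB3 alone. Without it, the LAMB3 window had a log2 ratio of 0.40, 0.64 and 0.96, short of 1.5-fold at 6 h and past it at 24 and 72 h.

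Other regions of the LAMB3 gene body also rose. The region over a coding exon at chr1:209632465-209636889, the largest rise of the gene, had a scaled AUC of 1454 in solvent and then 5738, 7324 and 10855 after 6, 24 and 72 h, or 7.47-fold at the end. Its neighbour at chr1:209624985-209632311 went from 3448 to 9486, 12271 and 17988, a log2 ratio of 1.46, 1.83 and 2.38. Nearer to the start, chr1:209638831-209645123 went from 2177 to 4685, 6370 and 9259, a log2 ratio of 1.11, 1.55 and 2.09. Closer still to the start, chr1:209645407-209647833 went from 1715 to 2163, 3182 and 4093, a log2 ratio of 0.33, 0.89 and 1.25. All 4 were higher at each successive time.

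Of the 7 LAMB3 regions in the gene body away from its start sites, 4 were higher at 6 h and 6 at both 24 and 72 h. The exception, a 306 bp peak seen at 72 h alone, had a scaled AUC of 226. In the flanks, 5 of 15 regions were higher at 72 h, the strongest of them upstream at chr1:209688336-209689936, nearest to the start of HSD11B1, with 751, 1818, 2902 and 3393. No LAMB3 region was lower at any time. Over all merged regions, 14.3%, 26.2% and 30.6% were higher at 6, 24 and 72 h, and 1.43%, 3.13% and 4.14% were lower.

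At the LAMB3 start sites themselves the picture was flatter. The region that held all 3 annotated starts, chr1:209650352-209655197, had 12302 in solvent and then 12523, 13591 and 15320 after 6, 24 and 72 h, a log2 ratio of 0.03, 0.14 and 0.32. The adjoining upstream region chr1:209655370-209658952 had 10592, 12762, 13669 and 14724, a log2 ratio of 0.27, 0.37 and 0.48. Inside the gene, chr1:209648879-209650235 had 3177, 2540, 2821 and 3083, the lowest ratio of the gene at 72 h (-0.04). Next to it, the intron region chr1:209647986-209648753, whose summit sequence holds the SMAD palindrome printed above, had no solvent peak and reached 284, 802 and 1141, at least 5.71-fold above solvent at 72 h.

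**Figure D2:**
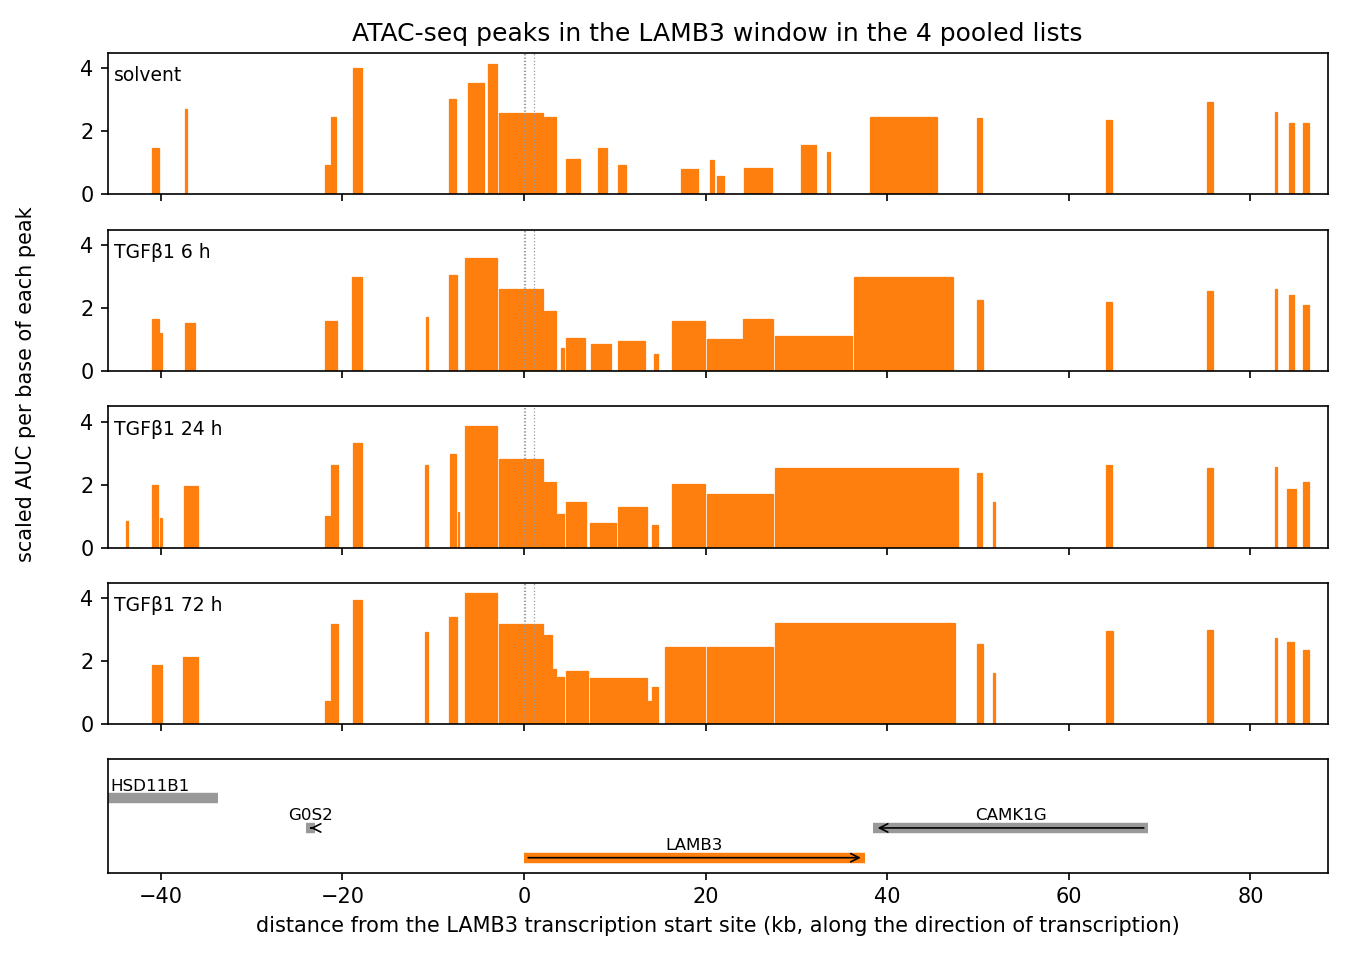
Peaks of the LAMB3 window in the 4 lists, with distance from the LAMB3 start along transcription in kb (x), scaled AUC per base of each peak (y, same range in each panel), dotted lines at annotated LAMB3 starts and gene bodies beneath. The spaces between peaks along the gene body close with TGFβ1, up to 94.4% covered at 72 h, while the region over the starts ends at a log2 ratio of 0.32.

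LAMA3, the gene of the α3 chain, has start sites for a long form and, 183.567 kb further along, for the short form that epithelial laminin-332 uses. The region over the short-form start, chr18:23872157-23873528, was the strongest of the gene, with a scaled AUC of 3906 in solvent and then 3959, 3953 and 4142 after 6, 24 and 72 h. Its log2 ratio was 0.02, 0.02 and 0.08, so the list at 72 h was 1.06-fold above solvent. The region over the long-form start, chr18:23689003-23690316, had 2320, 2236, 1954 and 1722, a log2 ratio of -0.05, -0.25 and -0.43, the lowest of the gene at 72 h and still short of 1.5-fold. The region just before the short-form start, chr18:23870806-23871918, had 1638, 2548, 2810 and 3145, a log2 ratio of 0.64, 0.78 and 0.94. The start of the short form was thus level next to a region that was higher from 6 h on.

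The LAMA3 regions that changed lay within the gene. Of 37 gene-body regions away from the start sites, 5 were higher at 6 h and 17 at both 24 and 72 h, whereas none of the 9 flanking regions was higher at any time. Over all merged regions, 14.3%, 26.2% and 30.6% were higher at 6, 24 and 72 h, so the gene-body count at 6 h was near that of all regions. At chr18:23835025-23835488, the largest rise, there was no solvent peak, and the scaled AUC was 240, 614 and 1144, at least 5.72-fold above solvent at 72 h. At chr18:23784948-23785402 there was no peak in solvent or at 6 h, and the scaled AUC was 640 at 24 h and 1124 at 72 h, at least 5.62-fold. An intron region with a peak in every list, chr18:23822582-23823255, had 267, 331, 875 and 1209, a log2 ratio of 0.31, 1.71 and 2.18. Between these, strong intron regions stayed level, such as chr18:23825846-23826569 with 1634, 1452, 1509 and 1679.

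The laminin-332 genes reached their counts of higher regions at different times, a difference with no test. LAMA3 had 6 regions higher at 6 h and 18 at both 24 and 72 h, or 15.4%, 39.1% and 37.5% of those with a ratio. LAMB3 had 6, 9 and 12 after 6, 24 and 72 h, or 27.3%, 36% and 50%. Over all merged regions the shares were 14.3%, 26.2% and 30.6%. A solvent peak was missing in 24 of 52 LAMA3 regions and 7 of 26 LAMB3 regions, against 44165 of all 126658. No region of either gene was lower at any time.

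**Figure D3:**
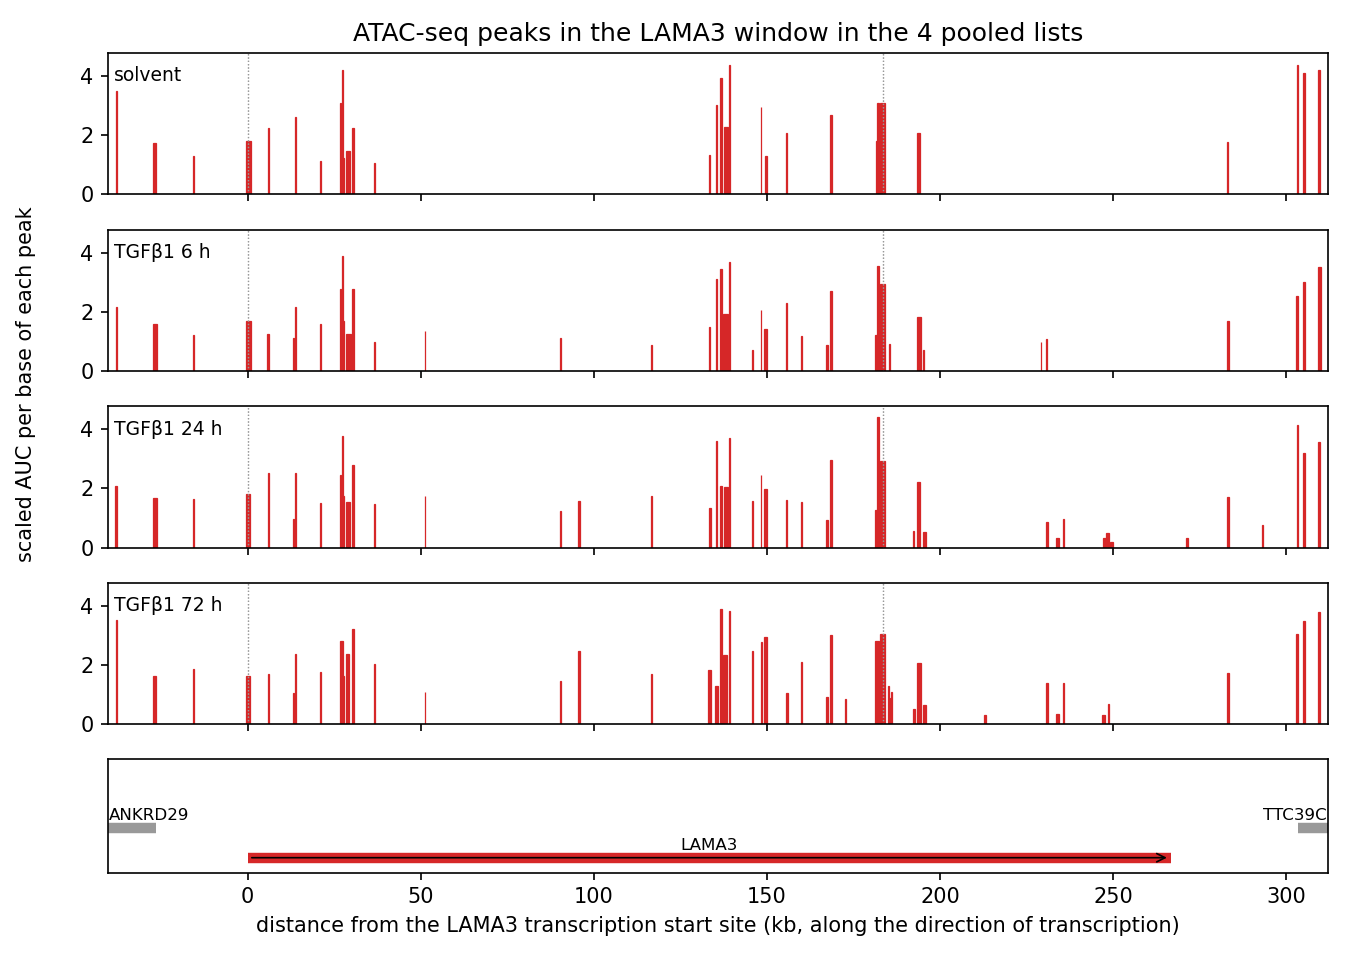
Peaks of the LAMA3 window in the 4 lists, with distance from the long-form start along transcription in kb (x), scaled AUC per base of each peak (y, same range in each panel), dotted lines at annotated starts and gene bodies beneath. New peaks appear along the gene body at 24 and 72 h, and the region over the short-form start ends at a log2 ratio of 0.08.

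Among the α chains outside laminin-332, LAMA4 held the largest rise of all 198 regions. At chr6:112205402-112206207, in an intron 49134 bp from the LAMA4 start but nearer to that of another annotated coding gene (ENSG00000281613), there was no solvent peak, and the scaled AUC was 641, 1066 and 1760 after 6, 24 and 72 h, at least 3.20-fold, 5.33-fold and 8.80-fold above solvent. An upstream flanking region at chr6:112298746-112299459 had 524, 1001, 1769 and 2209, a log2 ratio of 0.93, 1.75 and 2.07. The LAMA4 start region had only 624, 703, 880 and 758, a log2 ratio of 0.17, 0.50 and 0.28. LAMA4 shares its window with other genes, and only 5 of its 17 regions had a LAMA4 start as the nearest protein-coding start. Over these 5 the summed log2 ratio was 0.46, 1.01 and 1.19, above the 0.57 of the whole window at 72 h. Both LAMA4 regions that were lower at 24 h lay in introns. At chr6:112218478-112219114 the scaled AUC was 1515, 1355, 944 and 1084, a log2 ratio of -0.68 at 24 h and -0.48 at 72 h. At chr6:112237634-112238008 it was 563, 625, 374 and 381, or -0.59 and -0.56.

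LAMA1 had no peak over its start site in any list, and 6 of its 12 regions had no solvent peak. Its strongest region, over an exon at chr18:7038165-7039066, had 3096, 2849, 2880 and 3087 and so was level. Its largest rise lay in the flank at chr18:6917108-6917446, nearer to another gene (ARHGAP28), with no solvent peak and 274, 591 and 768, at least 3.84-fold at 72 h. In all, 1, 4 and 5 LAMA1 regions were higher at 6, 24 and 72 h and none was lower. Of these, 1, 3 and 3 were among the 4 regions nearest to the ARHGAP28 start, which summed to a log2 ratio of 0.77, 1.23 and 1.27. The 8 regions nearest to the LAMA1 start summed to only 0.18, 0.26 and 0.30. Over all merged regions, 14.3%, 26.2% and 30.6% were higher at these times.

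The region over the LAMA5 start, chr20:62365532-62367464, had 5392 in solvent and then 4512, 4203 and 3732 after 6, 24 and 72 h. Its log2 ratio was -0.26, -0.36 and -0.53, the lowest of all laminin start regions but short of 1.5-fold. The region chr20:62349965-62351231, with its summit in an intron and an AP-1 site and 2 E-boxes within 100 bases of it, had 4639, 3473, 2820 and 3109. It was lower at 24 h (-0.72) and at -0.58 at 72 h, just short of 1.5-fold. The other region lower at 24 h, in an intron at chr20:62361838-62362178, had 528, 415, 331 and 391 (-0.68 at 24 h). Upstream, chr20:62375599-62375792 had 410, 333, 289 and 248 and was lower at 72 h (-0.73). At chr20:62405371-62405650, nearest to the start of CABLES2, values of 286, 339 and 334 were followed by no peak at 72 h, a log2 ratio of at most -0.77. A few LAMA5 regions rose. Within 3 kb of the start, chr20:62364829-62365425 had 649, 951, 1115 and 876, and chr20:62368969-62370812 had 2446, 3346, 3745 and 3360. Both were called higher at 24 h (0.78 and 0.61) and at no other time. At chr20:62355510-62356061, the largest rise, there was no solvent peak and 442, 609 and 489, at least 2.44-fold at 72 h. Another was the intron region chr20:62356975-62357589 with 463, 785, 913 and 1120, and over the window 2, 7 and 5 were higher and 0, 2 and 2 lower at 6, 24 and 72 h. Of all merged regions, 14.3%, 26.2% and 30.6% were higher and 1.43%, 3.13% and 4.14% lower.

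LAMB1 and LAMB2 changed little. At the LAMB1 starts the scaled AUC was 1805, 1970, 2045 and 2103, and at those of LAMB2 it was 3447, 3301, 3402 and 3090. Against 14.3%, 26.2% and 30.6% of all merged regions at 6, 24 and 72 h, 3 of the 19 LAMB1 regions were higher at each time. The largest rise was the intron region chr7:107971677-107972377, with a TEAD site within 100 bases of its summit and 212, 551, 746 and 631, or 2.98-fold at 72 h. Close by, chr7:107972941-107973558 had 1622, 1162, 1033 and 1110 and was lower at 24 h (-0.65). In LAMB2, the shortest of the genes, only 1 of 12 regions had a LAMB2 start as its nearest protein-coding start, so its window mostly describes other genes. Its largest rise, at chr3:49098337-49098781 and nearest to the start of QRICH1, had no solvent peak and 281, 597 and 658. The lowest ratio among its regions with an AUC of at least 400, at chr3:49120169-49121253 and nearest to the start of USP19, was -0.25 at 72 h (2073, 1923, 1936 and 1739). Weaker flanking regions were lower, 1 at 6 h and 2 at both 24 and 72 h, among them chr3:49180169-49180418, which had a peak in solvent alone and a log2 ratio of at most -0.98 at 72 h. Over all merged regions, 1.43%, 3.13% and 4.14% were lower at 6, 24 and 72 h.

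As in the LAMB3 window, the strongest regions of 4 other windows lay nearest to the start of a neighbouring gene, and these 4 were level. In the LAMA4 window it lay nearest to the start of TUBE1 (2704, 2780, 2803 and 2684), in that of LAMA5 nearest to ADRM1 (7320, 7231, 7185 and 6594), in that of LAMB1 nearest to DLD (4063, 3766, 3901 and 3855), and in that of LAMB2 nearest to QRICH1 (6288, 5784, 5670 and 6059). Their log2 ratios at 72 h were between -0.15 and -0.01, so the laminin windows of these genes rest in part on regions that did not pass 1.5-fold.

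LAMC1, the gene of the γ1 chain, had a strong and level start region (9558, 9039, 8562 and 8785) and 13 of 32 regions higher at 72 h, after 6 at 6 h and 7 at 24 h. Of these, 8 lay in the gene body, such as the intron region chr1:183087072-183087338 with 254, 371, 463 and 606. The largest rise, at chr1:183137703-183138614 towards the 3′ end of the gene and nearer to the start of another one, had no solvent peak and 864, 838 and 906, already at least 4.32-fold above solvent at 6 h. At chr1:183007718-183008150, upstream of the start, the values were 421, 512, 234 and 237, the largest fall named by the rule for regions with an AUC of at least 400 in some list (-0.83 at 72 h). Of the 32 regions, 12 lay nearer to the start of another protein-coding gene, and 7 of these were among the 13. Of the 32 regions, 30 had a ratio at 72 h. Over all merged regions with a ratio, 30.6% were higher at 72 h.

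Counted by position, regions at laminin start sites were the least often higher at 72 h. Of 23 regions within 3 kb of an annotated protein-coding start of a member, 2, 5 and 2 were higher after 6, 24 and 72 h, and none was lower. In gene bodies beyond that distance, 19, 34 and 41 of 101 regions were higher and 0, 6 and 0 lower. In the flanks, 6, 13 and 18 of 74 were higher and 1, 3 and 5 lower. These classes use the starts of the laminin genes alone, and their totals include regions without a ratio at a given time. Split instead by 3 kb from any TSS, 23 of 84 laminin regions within it (27.4%) and 38 of 101 beyond it (37.6%) were higher at 72 h. Over all merged regions, 19.0% of those within 3 kb of any TSS and 36.7% of those beyond it were higher at 72 h. The scaling itself sets the median log2 ratio of shared regions within 3 kb of any TSS to 0 in each list. A level start region is therefore level relative to such regions.

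Over all 8 genes, the counts followed those of the genome. At 6 h, 27 of 169 laminin regions with a ratio were higher, against 14.3% of all regions. At 24 h it was 52 of 178, against 26.2%, and at 72 h it was 61 of 185, against 30.6%. The lower regions numbered 1, 9 and 5, against 1.43%, 3.13% and 4.14% of all regions. The laminin shares were 16.0%, 29.2% and 33.0% for higher and 0.592%, 5.06% and 2.70% for lower, so the windows as a set were near the background in both directions. Of the 61 regions higher at 72 h, 25 were already higher at 6 h, 23 first at 24 h and 13 first at 72 h, and 27 had no solvent peak. Over all merged regions, 35681 were higher at 72 h, with 13084 already at 6 h, 13331 first at 24 h and 9266 first at 72 h. Of the 35681, 17436 had no solvent peak, so the laminin split was near that of all regions.

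To contrast the laminin-332 genes with the rest, their regions were set side by side. LAMA3 and LAMB3 together had, in the order of the times, 12 of 61 (19.7%), 27 of 71 (38%) and 30 of 72 (41.7%) regions higher, and none lower. The other 6 genes had 15 of 108 (13.9%), 25 of 107 (23.4%) and 31 of 113 (27.4%) higher, and 1, 9 and 5 lower. The median log2 ratio was 0.20, 0.36 and 0.46 in the laminin-332 regions and 0.08, 0.09 and 0.22 in the others, a difference of 0.12, 0.28 and 0.24. LAMA3 regions alone had medians of 0.17, 0.34 and 0.41 and LAMB3 regions alone 0.24, 0.37 and 0.66. Among the other genes, LAMA1 had 0.22, 0.42 and 0.54, LAMA4 0.07, 0.45 and 0.32, and LAMC1 0.16, 0.21 and 0.48. LAMA1 and LAMA4 were thus above both laminin-332 genes at 24 h, and LAMA1 and LAMC1 were above LAMA3 at 72 h. LAMA5 (-0.01, -0.01 and -0.11), LAMB1 (0.12, 0.08 and 0.17) and LAMB2 (-0.06, -0.1 and 0.01) were below both at each time. With regions beyond 3 kb of a TSS only, the difference was 0.17, 0.18 and 0.21.

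The contrast at 6 h changed direction with the measure: it became -0.03 when the AUC was taken per base and -0.01 when only peaks with an AUC of at least 400 were used. At 24 and 72 h the laminin-332 median stayed above the other under each alternative tried, from 0.06 to 0.56 and from 0.10 to 0.35. Regions of 1 gene share a locus and are not replicates of a condition, so the size of the gap has no error of its own.

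**Figure D4:**
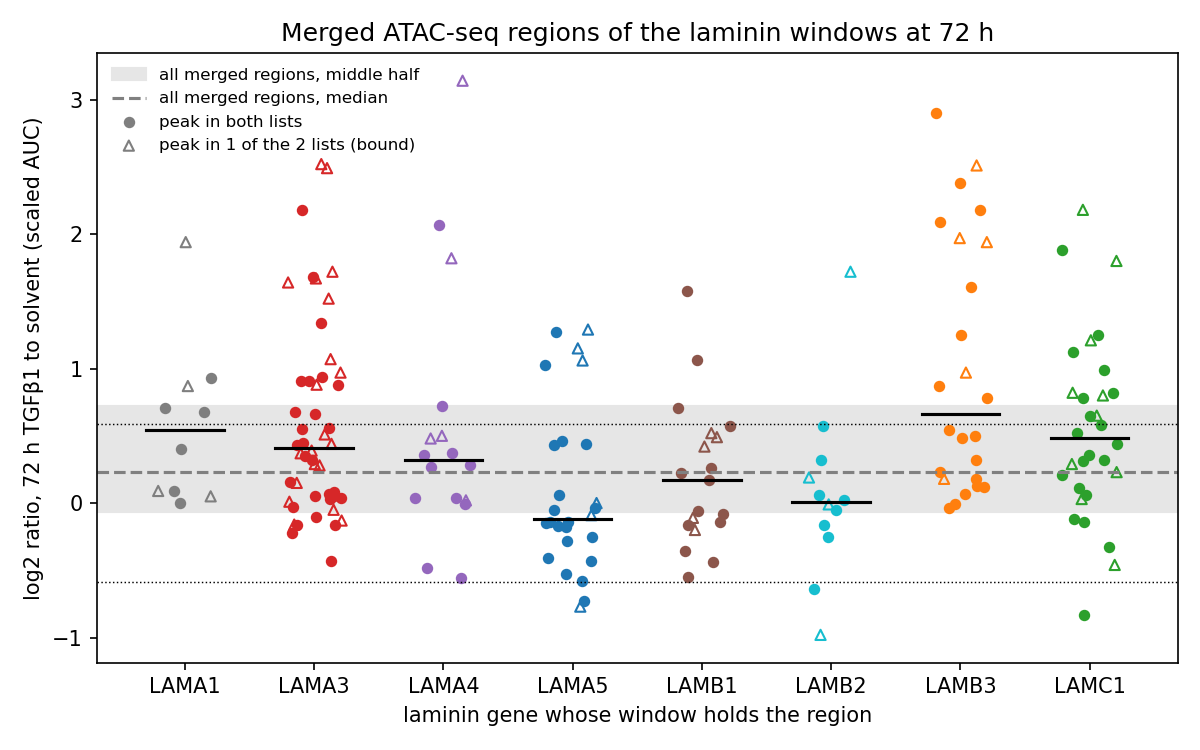
Log2 ratio of scaled AUC, 72 h of TGFβ1 to solvent (y), of each merged region by laminin window (x); filled points have a peak in both lists, open triangles in 1 of them (bounds), black bars are medians, and the grey band is the interquartile range of all merged regions. LAMA3 and LAMB3 have no point below the lower 1.5-fold line, and the LAMA5 median lies below 0.

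The wider basement membrane pathway moved less than LAMB3. Of 6 hemidesmosome genes (ITGA6, ITGB4, COL17A1, DST, PLEC and CD151), none had a window past 1.5-fold at any time, with log2 ratios at 72 h from -0.09 for PLEC, the cytoskeletal linker, to 0.40 for COL17A1, the transmembrane collagen. Of 4 laminin receptor genes (ITGA3, ITGB1, DAG1 and BCAM), none was past it either, and BCAM, a receptor of α5 laminins, had the lowest values (-0.18, -0.28 and -0.32). Of 8 basement membrane partners (NID1, NID2, HSPG2, AGRN, COL4A1, COL4A2, COL7A1 and NTN4), NID2, which encodes a nidogen that links laminin to collagen IV, was higher at 24 and 72 h. Its summed scaled AUC was 4488, 6550, 8050 and 9126, a log2 ratio of 0.55, 0.84 and 1.02. That is 1 of 18 genes at 72 h against the 11.3% of all windows, and none of the 18 was lower.

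Among genes with at least 5 regions in their windows, those with the profile of summed log2 ratios nearest to LAMB3 over the 3 times were HNMT (0.59, 0.85 and 1.14), CXCL3 (0.59, 0.82 and 1.20) and SLCO5A1 (0.64, 0.89 and 1.13). Those nearest to LAMA3 were ATP6V1G3 (0.20, 0.36 and 0.53), UTP15 (0.19, 0.36 and 0.55) and MAEL (0.21, 0.34 and 0.52). The distances, taken as root summed squares of the 3 differences, were between 0.0199 and 0.0695, out of 16298 candidates for LAMA3 and 16297 for LAMB3.

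Sequence motifs were counted within 100 bases of each summit. An AP-1 site stood in 57 of 198 laminin regions (28.8%), against 32.3% of all regions, and in 20 of the 61 that were higher at 72 h (32.8%), against 44.8% of all regions higher at 72 h. LAMC1 (37.5%) and LAMA3 (36.5%) regions held it most often and LAMB2 regions (8.33%) least. An E-box stood in 21.2% of laminin regions and 17.9% of all, a SMAD palindrome in 2.02% and 1.35%, and a TEAD site in 6.57% and 4.85%. The shares over all laminin regions are near those of all regions, whereas the AP-1 share in those higher at 72 h was lower. Regions beyond 3 kb of a TSS were a smaller part of the laminin regions than of all. Among them the shares were 36.4% and 37.5% for AP-1, 15.5% and 17.7% for the E-box, 0.909% and 1.42% for the SMAD palindrome, and 8.18% (9 of 110) and 5.49% for TEAD. The direction thus turned for the E-box and the SMAD palindrome and stayed for AP-1 and TEAD. Of regions beyond 3 kb that were higher at 72 h, 36.8% of the laminin ones and 45.5% of all held an AP-1 site.

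Of the 9 RefSeq promoters found for 7 of the genes (none for LAMA1), 2 held an AP-1 site within the 300 bases from 250 before to 50 after the start, against 4.95% of 35116 promoters. The short-form LAMA3 promoter held 2 of them and the downstream LAMB3 promoter 1, both printed above. In the LAMA3 promoter the downstream AP-1 site shares 2 letters with an E-box (CACCTGAGTCA), and the summit sequence of the strongest LAMB3 region holds the same arrangement (CAGGTGAGTCA). Any such overlap, in either order and on either strand, occurred in 3 of 198 laminin regions (1.52%), the third lying in the LAMC1 window nearest to another protein-coding gene, and in 888 of 126658 regions (0.701%). This overlap was looked for after the sequences had been seen. One of these laminin regions was higher at 72 h, and the short-form LAMA3 promoter was level.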

How the data were processed

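The 8 ATAC-seq libraries came from MCF10A cells, 2 per condition. Per the labels and the study's methods, the authors used Trimmomatic (0.38) for trimming and Bowtie2 (2.4.5) for mapping to GRCh38, removed duplicates with Picard, filtered with SAMtools (1.4.1) at a mapping quality limit of 30, and called peaks with Genrich (0.5) on both replicates together, with an AUC above 200 and an adjusted p below 0.01. The deposited signal of a peak is its AUC; the deposited summit offsets placed the printed sequences, and the deposited −log10 q-values entered no result. Versions come from the submitters' processing notes. Lists were matched to conditions by name.

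Merging, scaling, windows and calls were computed in Python 3.11.15 with numpy 2.4.6 and pandas 2.3.3 and tested on simulated data. Genes came from GENCODE 44; protein-coding genes numbered 19970 on the 23 chromosomes with peaks. The named regions are, per gene, its start regions, the region of largest scaled AUC, and the largest rise and fall at 72 h among regions with an AUC of at least 400 in some list, plus the 5 largest rises and falls overall; other regions named were chosen after their values had been seen, to show neighbours or flanks. The genes of similar profile are the 3 nearest by Euclidean distance over the 3 window ratios, outside the window. The members and lists were chosen with earlier results of these data known. No test was possible, as each condition has 1 pooled list. Alternatives covered scaling, measure, AUC minimum, list length, window, fold and region choice.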

Additional observations from a re-analysis of the deposited data

How the results depend on the processing

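No paired analysis was possible because the peaks of both replicates of a condition were called together, and for the same reason no replicate could be left out. Of the counts of laminin regions, 27 kept within 1.5 times and 27 did not; of the differences between laminin-332 and other medians, 17 were close to the reported ones, 11 moved and 2 reversed; of the window ratios, 181 were close and 11 moved. With the AUC per base under peaks, higher regions numbered 8, 18 and 18 at 6, 24 and 72 h and lower ones 7 at 6 h, the difference was -0.03, 0.06 and 0.10, and window ratios were -0.30, -0.09 and -0.18 for LAMA1 (6, 24 and 72 h), and at 24 and 72 h -0.36 and -0.26 for LAMA3, -0.19 and -0.02 for LAMA4, and 0.18 and 0.42 for LAMB3. With a 2-fold threshold, 11, 30 and 37 regions were higher, and 1 (24 h) and 0 (72 h) lower. Without scaling, 80 (6 h) and 90 (24 h) were higher, and 1 lower at 24 and at 72 h. Scaled on all shared regions, 2 (6 h) and 11 (72 h) were lower. With peaks of an AUC of at least 400, 16 were higher at 6 h, 0, 4 and 0 were lower, and the difference was -0.01 (6 h) and 0.13 (24 h). With lists of equal length, 0 (6 h) and 1 (72 h) were lower, and the difference was 0.05 and 0.17 at 6 and 24 h. With windows of 10 kb, 0 (6 h) and 1 (72 h) were lower, and the difference was 0.19 and 0.45 at 6 and 24 h. With regions nearest to a laminin start, 40 were higher at 72 h, 0, 5 and 2 were lower, the difference was 0.56 at 24 h, and LAMA4 stood at 1.01 and 1.19 at 24 and 72 h. The difference was 0.02 at 6 h with regions in every list, 0.06 at 6 h with the strongest peak of a region, and 0.18 at 24 h with distal regions. Fewer regions enter the narrower choices by construction; for the other changes the cause was not tested. The lists give no depth, so a missing peak may lie just under the limit of the authors.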
